A study of Homo sapiens with 74 samples.

Results

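The accessible regions of 8 very large genes, LRP1B, FHIT, PARK2, IMMP2L, CSMD1, PTPRD, DLG2 and MACROD2, were followed across knockouts and knockdowns of BAF (SWI/SNF) subunits in HAP1 cells. A region was taken as a member when its centre lay in one of 8 hg19 windows, which together cover 15.2 Mb, and 688 of the 145536 regions of the knockout table did so. The windows are chr2:140900000-142900000 (LRP1B, 79 regions), chr3:59700000-61300000 (FHIT, 67 regions), chr6:161700000-163200000 (PARK2, 86 regions), chr7:110300000-111300000 (IMMP2L, 61 regions), chr8:2700000-4900000 (CSMD1, 69 regions), chr9:8300000-10700000 (PTPRD, 140 regions), chr11:83100000-85400000 (DLG2, 140 regions) and chr20:13900000-16100000 (MACROD2, 46 regions). The windows were set by coordinates, and no count or test selected regions within them. The loci were chosen with earlier results of these data known. All 688 regions passed the filter on low counts in both tables.

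HAP1 is a near-haploid human line derived from a chronic myeloid leukaemia, and ATAC-seq counts the cuts that a transposase makes in open chromatin. The knockout table holds 22 knocked-out genes in 26 clones and wild-type HAP1 (C631), and the knockdown table holds 16 libraries of 8 groups. Every group has 2 libraries, except that the wild type has 2 in each of 2 sets told apart by the form of the titles. ARID1A, ARID1B, BCL7B and SMARCA4 have 2 clones each and every other knockout is 1 clone, so the effect of a lost subunit and the history of its clone cannot be told apart there. The knocked-out genes are ACTB, ARID1A, ARID1B, ARID2, BCL11A, BCL11B, BCL7A, BCL7B, BRD7, BRD9, DPF1, DPF2, DPF3, PBRM1, PHF10, SMARCA2, SMARCA4, SMARCC1, SMARCC2, SMARCD1, SMARCD2 and SMARCD3. One clone each of ARID1B (clone 5), BCL7B (clone 10) and SMARCC2 is in set 2 and was compared with the wild type of that set. The knockdown groups are wild-type cells with knockdown of a control, of SMARCA4, of ARID2 or of both, ARID2 knockout cells with knockdown of a control or SMARCA4, and SMARCA4 knockout cells with knockdown of a control or ARID2. The labels do not say whether the 2 libraries of a group stem from different cultures. A p-value here therefore compares a difference with the spread between such libraries, which may be technical. The counts cannot show whether a targeted gene was disrupted, since a small edit need not change the accessibility around it.

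Common fragile sites are stretches of the genome that break when replication is slowed, and several of them lie inside genes whose introns make them exceptionally long. Such genes are replicated late, hold few genes around them and are frequent places of deletion in cancer cells. LRP1B encodes an endocytic receptor of the LDL receptor family, FHIT a hydrolase of diadenosine triphosphate, PARK2 the ubiquitin ligase parkin and IMMP2L a subunit of a mitochondrial inner membrane peptidase. CSMD1 encodes a membrane protein with complement control domains, PTPRD a receptor tyrosine phosphatase, DLG2 a scaffold protein of synapses and MACROD2 an enzyme that removes mono-ADP-ribose. BAF complexes slide and evict nucleosomes with either of 2 ATPases, SMARCA4 or SMARCA2. ARID1A or ARID1B marks the canonical form, ARID2, PBRM1, BRD7 and PHF10 mark PBAF, and BRD9 marks a smaller form.

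Total counts per library ran from 5085811 to 12422345 in the 56 knockout-table libraries and from 5355899 to 12432292 in the 16 knockdown libraries, with a median count per region of 17 to 43. The 8 loci held 0.247 to 0.409% of a library's reads. They had 45.3 regions per Mb against 48.5 over all regions, and a mean counts-per-million value (CPM, scaled to the library total) of 4.73 per region against 6.87. Among the 8 loci, IMMP2L was the densest with 61 regions per Mb and MACROD2 the sparsest with 20.9. MACROD2 and CSMD1 also had the lowest mean per region, 3.29 and 3.3 CPM.

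In edgeR on the counts, each clone set against the wild type of its set, member regions were more often called lower than higher, and most of the lower calls came from 3 knockouts. A region or total is said to be called lower or higher at an adjusted p under 0.05 in edgeR, adjusted over all regions or windows tested. Summed over the 22 knockouts, 421 of 15136 tests of member regions were called lower, 2.78% against 1.64% over all regions, and 163 were called higher, 1.08% against 0.926%. SMARCA4, ARID1A and SMARCC1 gave 173, 103 and 39 of the lower calls and 35, 13 and 11 of the higher ones. The direction turned with the authors' scaling: over the 19 knockouts wholly in set 1, limma on their normalized values called 200 lower and 330 higher, where the counts gave 398 and 129. All regions turned too in the knockouts with most calls. SMARCA4 went from 20200 lower and 11638 higher to 8380 and 26377, and ARID1A from 14983 and 3298 to 7815 and 14170. Against the wild types of both sets pooled, the 22 knockouts gave 943 lower and 246 higher. Calls over all regions moved with that reference too. In SMARCA4 they went from 20200 to 29971 lower and 11638 to 20470 higher, but in ARID1B from 2123 to 2092 and 2560 to 1521. In none of the 22 knockouts were 414 of the 688 regions called (60.2%, against 70.2% of all regions). At the other end, 20 regions (2.91%, against 1.42%) were called in at least 5 knockouts and 4 (0.581%, against 0.126%) in at least 10. Of those 4, 3 lie in CSMD1 and 1 in MACROD2. The count of lower calls was 239 without wild-type replicate 1 and the count of higher calls 67 without wild-type replicate 2, both of set 1.

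The knockout of the ATPase SMARCA4 had the most member regions called. In the SMARCA4 knockout 173 of 688 were called lower (25.1%, against 13.9% of all regions) and 35 higher (5.09%, against 8%), with a median log2 fold change of -0.41 beside 0.01 over all regions; in the authors' normalized values the median was 0.25 beside 0.34 over all regions, and limma called 56 lower and 109 higher. The direction of the member median and the lower to higher split therefore turned with the authors' scaling, and the split over all regions turned too. In the authors' values 33.9% of called members were lower, beside 24.1% of all called regions, and in the counts 83.2% beside 63.4%. The member median minus that of all regions was -0.09 in the authors' values and -0.42 in the counts. Clone 4 alone gave 143 lower (against 11.2%) and 31 higher regions (against 6.3%), and clone 6 gave 125 (against 10.3%) and 31 (against 5.48%). The share called lower was larger among more accessible regions, and so was the share called higher. With all regions put in 4 equal bins by mean CPM, 69 of 122 member regions of the most accessible bin were called lower (56.6%, against 21.4% of all regions in that bin), and 13 of 216 of the least accessible bin (6.02%, against 3.65%). In the same bins 17 members (13.9%, against 19.8%) and 3 members (1.39%, against 1.82%) were called higher. FHIT had 25 of 67 regions lower and 2 higher, DLG2 39 and 4 of 140, PARK2 27 and 5 of 86, PTPRD 31 and 7 of 140, LRP1B 18 and 5 of 79, CSMD1 16 and 1 of 69 and MACROD2 11 and 1 of 46. IMMP2L was the one locus with more regions higher, 10, than lower, 6, of 61.

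The canonical BAF subunit ARID1A followed, with 103 member regions lower (15%, against 10.3% of all regions) and 13 higher (1.89%, against 2.27%). Its member median was -0.20 beside 0.02 over all regions. In the authors' normalized values it was 0.18 beside 0.22, with 39 lower and 78 higher, where all regions gave 7815 and 14170. With the wild types of both sets pooled the counts were 195 lower and 33 higher, where all regions gave 24655 and 8788. Lower member regions numbered 54 without wild-type replicate 1. MACROD2 had 14 of its 46 regions lower, IMMP2L 12 of 61, FHIT 14 of 67 and DLG2 22 of 140, whereas PTPRD had 10 of 140. The core scaffold subunit SMARCC1 gave 39 lower (5.67%, against 4.19%) and 11 higher (1.6%, against 1%). In the authors' normalized values it gave 21 lower and 26 higher, so that its split turned as well, where all regions gave 3683 and 4648. Against both wild types pooled it gave 106 lower and 10 higher, where all regions gave 13794 and 3685. Each of the other 19 knockouts had at most 16 member regions lower and 28 higher. The largest counts there were 28 higher for ARID1B (4.07%, against 1.76%), 19 higher for DPF2 (2.76%, against 1.42%), 16 lower for SMARCD1 (2.33%, against 0.814%) and 14 lower for BCL7B (2.03%, against 0.783%). SMARCD2 gave 12 lower (1.74%, against 0.201%) and SMARCD3 10 lower (1.45%, against 0.368%), of which 9 are neighbouring LRP1B regions lacking reads, described below. In their other direction, ARID1B gave 7 lower (against 1.46%), DPF2 6 lower (against 0.374%), SMARCD1 12 higher (against 0.764%), BCL7B 5 higher (against 0.62%), SMARCD2 1 higher (against 0.223%) and SMARCD3 6 higher (against 0.474%). The split of SMARCD3 turned to 5 lower and 9 higher with DESeq2 and to 12 and 16 in the authors' values, and that of SMARCD1 to 14 and 20 in the authors' values. Over all regions the same pairs were 516 and 714, 987 and 1562, and 1553 and 2988. Against both wild types pooled DPF2 gave 22 lower and 17 higher, SMARCD1 23 and 8, SMARCD2 61 and 9, and ARID1B 8 and 17. Over all regions these were 1982 and 2501, 2768 and 1344, 5220 and 2625, and 2092 and 1521.

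The gene values of ARID1B and BCL7B joined clones that were unlike. ARID1B clone 7 gave 96 member regions higher (against 6.03%) and 19 lower (against 3.19%), while clone 5 gave 9 lower (against 0.205%) and 0 higher by edgeR (against 0.0701%), with 12343 of all regions at an unadjusted p under 0.05. BCL7B clone 8 gave 38 higher (against 3.5%) and 28 lower (against 1.33%), and clone 10 gave 7 lower (against 0.55%) and 1 higher (against 0.192%). The clones of each pair lie in different sets.

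The remaining knockouts had at most 10 member regions called in a direction against the wild type of their set. Among PBAF subunits, ARID2 gave 10 lower (against 1.11%) and 4 higher (against 0.682%), BRD7 6 lower (against 0.312%) and 2 higher (against 0.383%), PBRM1 2 lower (against 0.243%) and 5 higher (against 0.18%), and PHF10 3 lower (against 0.243%) and 1 higher (against 0.148%). BCL11B, a zinc finger protein, gave 4 lower (against 0.357%) and 9 higher (against 0.535%). Its relative BCL11A gave 7 higher (against 0.38%) and 0 lower by edgeR and by DESeq2 (against 0.295%), with 13022 of all regions at an unadjusted p under 0.05. ACTB, the actin of the complex, gave 6 lower (against 0.519%) and 2 higher (against 0.833%), and BRD9 4 lower (against 0.238%) and 1 higher (against 0.26%). SMARCC2 gave 2 lower (against 0.0584%) and 1 higher (against 0.0357%), although its clone had the highest CSMD1 total of all. These counts depended on the reference. Against both wild types pooled ARID2 gave 49 lower and 10 higher, ACTB 41 and 12, PHF10 35 and 13, BRD9 29 and 4, BRD7 20 and 10, PBRM1 17 and 10, and SMARCC2 3 lower and 18 higher. Over all regions that reference gave 7301 and 3756 in ARID2, 4450 and 3786 in ACTB and 4746 and 1988 in PHF10. It gave 2759 and 1206 in BRD9, 2761 and 2125 in BRD7, 2280 and 1081 in PBRM1 and 838 and 1078 in SMARCC2. In the authors' normalized values ARID2 gave 9 and 9, BRD7 6 and 12 and ACTB 5 and 4, and with DESeq2 BRD7 gave 5 and 5. Over all regions the same pairs were 1807 and 2641, 847 and 1552, 804 and 2144, and 469 and 711.

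Against the wild type of set 1, members were called least often in 4 knockouts. BCL7A gave 2 lower (against 0.189%) and 0 higher by both tools (against 0.278%), and SMARCA2, the second ATPase, 2 lower (against 0.16%) and 0 higher (against 0.0742%), where DESeq2 called 1 higher. DPF3 gave 1 higher (against 0.0364%) and 0 lower by both tools (against 0.0302%), and DPF1 0 in either direction by both tools (against 0.0378% lower and 0.0137% higher). At an unadjusted p under 0.05 these 4 knockouts had 12164, 10349, 9142 and 7843 of all regions. Against both wild types pooled BCL7A gave 29 lower and 10 higher, SMARCA2 8 and 1 and DPF3 3 and 1, with 4 lower for DPF1. Over all regions that reference gave 3032 and 2011 in BCL7A, 723 and 197 in SMARCA2, 323 and 97 in DPF3 and 543 and 124 in DPF1. In the authors' normalized values BCL7A gave 4 and 3 and SMARCA2 3 and 6, where all regions gave 542 and 921, and 444 and 439.

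**Figure D1:**
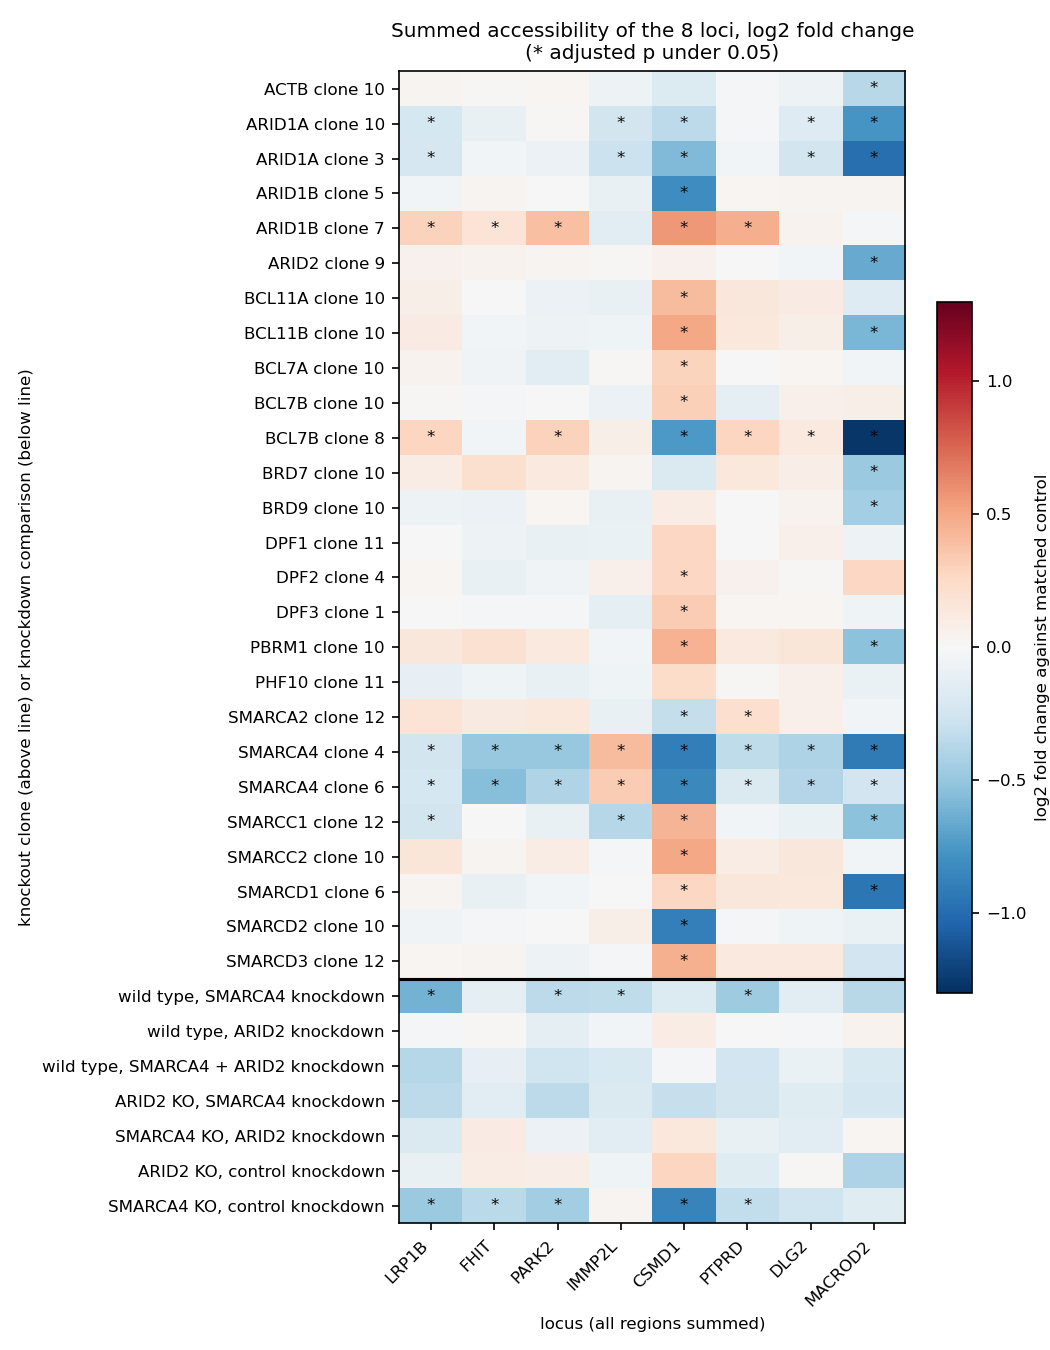
Log2 fold change of the reads summed over all regions of each locus (columns), for the 26 clones against the wild type of their set (rows above the line) and for the 7 knockdown comparisons (below it), with blue lower, red higher and an asterisk at an adjusted p under 0.05. The columns of CSMD1 and MACROD2 carry the most asterisks, and IMMP2L is red in both SMARCA4 clones where the other 7 loci are blue.

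Summing the reads of all regions gave each locus 1 value per library, and the same was done for 2 Mb windows over the rest of the genome, 1461 windows and loci in all. Over the 22 knockouts 26 locus totals were called lower (14.8%, against 4.53% of all windows) and 17 higher (9.66%, against 3.88%). Without wild-type replicate 1 of set 1 the higher calls numbered 9, and against both wild types pooled the lower calls numbered 41. In the SMARCA4 knockout the totals of 7 loci were called lower and that of IMMP2L higher, where 29.1% of all windows were lower and 23.8% higher. CSMD1 totalled 209 and 213 CPM in the set 1 wild type, 114 and 107 in clone 4 and 127 and 106 in clone 6. The knockout and wild-type libraries did not overlap, and the total fell by 0.87 on the log2 scale (SE 0.07, adjusted p 5.1e-14). FHIT totalled 332 and 342 CPM in the wild type, 226 and 244 in clone 4 and 233 and 222 in clone 6, a log2 change of -0.52 (SE 0.06). All 4 knockout libraries of FHIT were again below both wild-type libraries. PARK2 fell by 0.44, DLG2 by 0.39, PTPRD by 0.26 and LRP1B by 0.23 on the log2 scale.

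IMMP2L went the other way. Its total was 345 and 356 CPM in the wild type, 423 and 491 in clone 4 and 417 and 453 in clone 6, a log2 change of 0.37 (SE 0.06, adjusted p 3.8e-06). Every knockout library lay above both wild-type libraries. In SMARCC1 knockout cells the same locus was lower, with 259 and 279 CPM and a log2 change of -0.37 (SE 0.07, adjusted p 0.00018), and in ARID1A knockout cells it was also lower at -0.26 (SE 0.06, adjusted p 0.0012). These 3 knockouts share wild-type libraries.

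The remaining calls of LRP1B, PARK2, PTPRD and DLG2 totals were few and small. In the ARID1A knockout (20.6% of windows lower, 12.3% higher) DLG2 was lower at -0.21 (SE 0.04) and LRP1B at -0.22 (SE 0.06), the latter lost without wild-type replicate 2 (-0.20, adjusted p 0.059). In the SMARCC1 knockout (11.6% of windows lower, 3.83% higher) LRP1B was at -0.24 (SE 0.07), lost without SMARCC1 replicate 1 (-0.20, adjusted p 0.15) or wild-type replicate 2 (-0.22, adjusted p 0.098). In the ARID1B knockout (8.62% of windows lower, 11.2% higher) PARK2 was higher at 0.20 (SE 0.04) and PTPRD at 0.25 (SE 0.04) as a mean of unlike clones. Clone 7 was at 0.39 and 0.47, and clone 5 at 0.00 and 0.03 with neither called. The SMARCA2 knockout (1.51% of windows lower, 1.64% higher) gave 0.22 at PTPRD (SE 0.06, adjusted p 0.03). That value went to 0.03 (adjusted p 0.87) against both wild types pooled. The call was also lost without SMARCA2 replicate 2 (0.19) or wild-type replicate 1 (0.19) or 2 (0.26). The BCL7B knockout (3.83% of windows lower, 6.5% higher) gave 0.15 at PARK2, 0.15 at LRP1B and 0.10 at DLG2, again as means. Clone 8 was at 0.30, 0.28 and 0.13 and clone 10 at 0.00, 0.02 and 0.07, none of the latter called. PARK2 was lost when clone 10 replicate 2 (0.14), replicate 1 of clone 8 (0.10) or wild-type replicate 2 (0.13) was left out, LRP1B without any of 7 of the 8 libraries (0.12 to 0.16), and DLG2 without any of 7 of the 8 (0.08 to 0.11). Against both wild types pooled LRP1B (0.14, adjusted p 0.13) and DLG2 (0.10, adjusted p 0.1) were lost too.

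Single regions showed what the totals average. The regions given as lowest or highest of a locus were taken from called regions whose knockout and wild-type libraries do not overlap, so that separation is part of the choice and their values are a description. In PARK2, chr6:162657734-162658878 held 12.4 and 9.71 CPM in the wild type, 2.67 and 1.95 in SMARCA4 clone 4 and 2.31 and 2.47 in clone 6. It fell by 2.14 on the log2 scale (SE 0.25, adjusted p 1.4e-12), and was also called lower in ARID1A (-0.90), SMARCC1 (-1.49) and DPF2 (-0.90) knockouts. In DLG2, chr11:83958859-83959464 went from 9.72 and 7.31 CPM to 0.607 and 1.13 in clone 4 and 1.32 and 0.926 in clone 6. The log2 change was -2.99 (SE 0.30, adjusted p 4.7e-16), beside -2.63 in the ARID1A knockout. In PTPRD, chr9:10395963-10397146 held 19.1 and 20.8 CPM in the wild type, 2.55 and 2.77 in clone 4 and 6.17 and 8.44 in clone 6, a log2 change of -2.06 (SE 0.20, adjusted p 1.9e-17). That PTPRD region was called higher in 5 other knockouts: BCL11A (0.81), BCL11B (0.86), BRD9 (0.75), DPF2 (0.81) and SMARCD3 (0.77).

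IMMP2L held regions of both directions. The region chr7:110467232-110467995 had 19.4 and 20.9 CPM in the wild type, 4.74 and 4.31 in SMARCA4 clone 4 and 4.19 and 5.04 in clone 6. It was lower in SMARCA4 (-2.03, SE 0.21), ARID1A (-1.90, SE 0.20) and SMARCC1 (-1.85, SE 0.24) knockouts. In contrast, chr7:110717106-110718078 rose from 5.93 and 9.08 CPM to 36.4 and 46.2 in clone 4 and 29.9 and 38.1 in clone 6, a log2 change of 2.45 (SE 0.23, adjusted p 2.4e-17). The same region was called higher, by less, in ARID2 (0.96, adjusted p 0.025) and SMARCD2 (1.06, adjusted p 0.023) knockouts. Set 2 wild type held 35.1 and 32.1 CPM at the first region and 3.27 and 3.21 at the second, on the far side of set 1 from the SMARCA4 knockout in both regions.

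FHIT had 2 neighbouring regions that rose without SMARCA4. At chr3:61235540-61236106 the wild type had 3.4 and 2.39 CPM, clone 4 had 18.5 and 17.8 and clone 6 had 8.93 and 8.64, a log2 change of 2.2 (SE 0.31, adjusted p 2.4e-09). At chr3:61236898-61237469 the wild type had 17.4 and 14 CPM, clone 4 had 34 and 35.8 and clone 6 had 34.6 and 32.3, a log2 change of 1.22 (SE 0.18, adjusted p 1.8e-08). The second region went down to 3.66 and 2.42 CPM in the knockout of the PBAF subunit PHF10 (-2.34, SE 0.25, adjusted p 8.9e-13) and to 2.61 and 3.7 in that of the core subunit SMARCD1 (-2.28, SE 0.25, adjusted p 2.1e-12). It was called in these 3 knockouts and in no other. LRP1B had a region of the same direction as the first, chr2:141109187-141109738, with 2.82 and 2.39 CPM in the wild type, 9.84 and 10.5 in clone 4 and 11 and 10.3 in clone 6 (2.09, SE 0.30, adjusted p 5.5e-09).

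**Figure D2:**
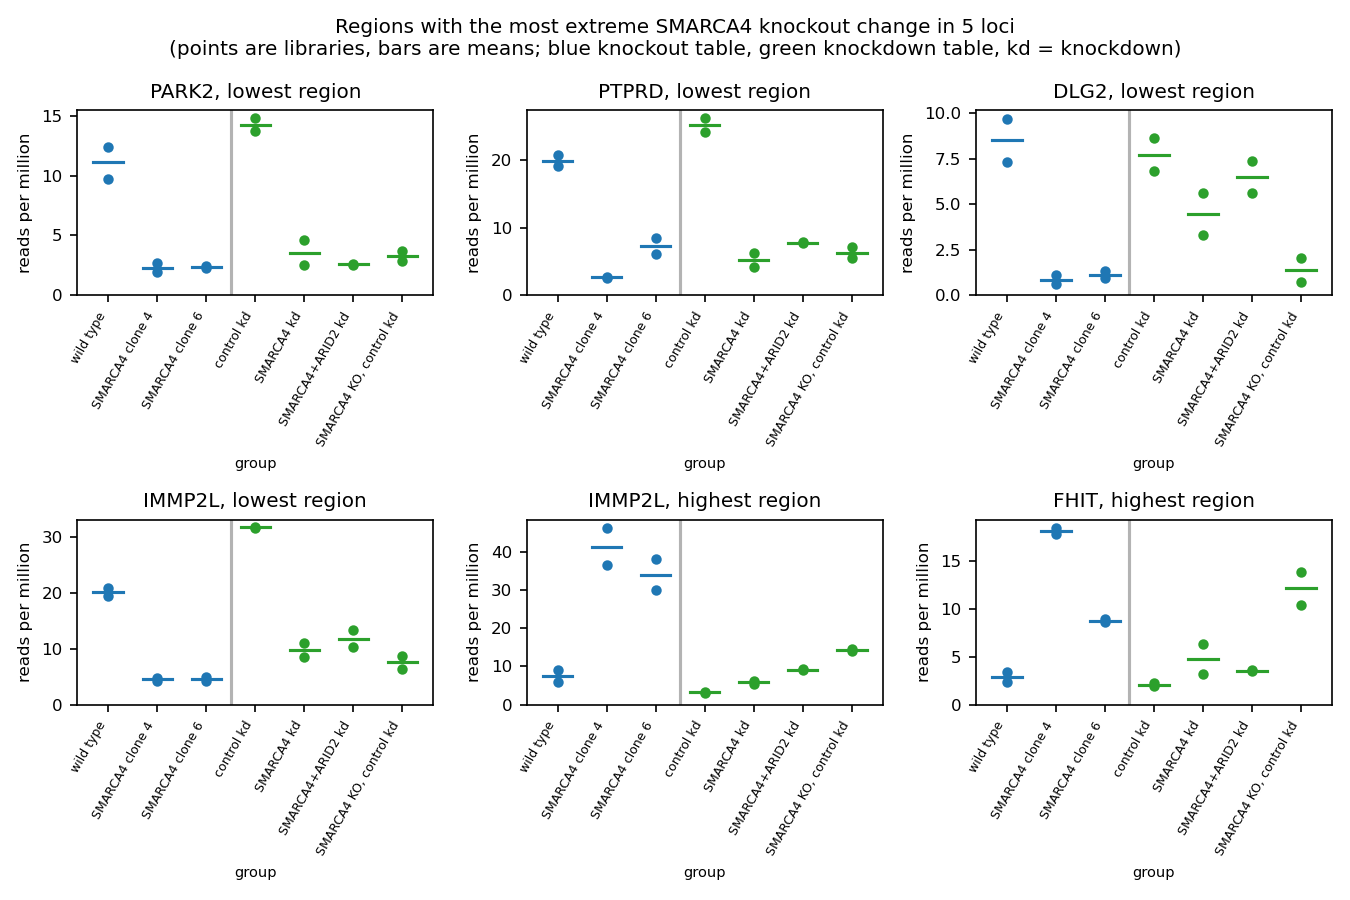
CPM in each library (points) and group mean (bars) for the regions with the lowest or highest SMARCA4 knockout change in PARK2, PTPRD, DLG2, IMMP2L and FHIT, with the knockout table in blue and the knockdown table in green. Regions were chosen so that knockout and wild-type libraries do not overlap, and the knockdown shifts are smaller in DLG2 and in the 2 highest regions.

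Other regions were shared between subunits or moved apart in them. In LRP1B, chr2:142794451-142795152 had 9.72 and 7.06 CPM in the wild type, 3.65 and 1.46 in ARID1A clone 10 and 2.2 and 2.14 in clone 3 (-1.83, SE 0.27, adjusted p 2.6e-08), beside -1.49 in SMARCA4 and -1.21 in SMARCC1 knockouts. Also in LRP1B, chr2:142870167-142870949 was lower in SMARCA4 (-1.21) and ARID1A (-0.59) knockouts and higher in BRD7 (0.89), DPF2 (0.75) and PBRM1 (0.97) knockouts. PTPRD showed the reverse for DPF2 at chr9:9223012-9223645, which was lower there (-1.78) and higher in SMARCD1 (1.88) and BCL7B (1.41) knockouts. For BCL7B that value joins clone 8, with 18 and 13.8 CPM beside 2.53 and 3.28 in its wild type, and clone 10, with 3.15 and 5.7 beside 3.27 and 3.35.

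PARK2 and DLG2 each had a region that was higher in several knockouts and lower without SMARCA4. The PARK2 region chr6:163123304-163124154 was called in 7 knockouts. It had 4.08 and 4.16 CPM in set 1 wild type, 7.89 and 9.9 in ARID1A clone 10 and 11.4 and 8.67 in clone 3 (1.23, SE 0.26, adjusted p 0.00011), was higher in ARID1B, BCL11A, BCL11B, SMARCC1 and SMARCD1 knockouts (0.93 to 1.18) and lower in the SMARCA4 knockout (-0.92). Set 2 wild type had 13.9 and 10.6 CPM, and against both wild types pooled the ARID1A value was 0.22 (adjusted p 0.5). The DLG2 region chr11:84120739-84121518 was higher in SMARCD1 (1.39, SE 0.28, adjusted p 0.0007), BCL11A, BCL11B and BCL7B knockouts and lower in ARID1A (-0.96) and SMARCA4 (-0.89) knockouts. Without wild-type replicate 1 the SMARCD1 value was 1.24 (adjusted p 0.088).

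The most accessible region of each locus mostly stood apart from these losses. In LRP1B (chr2:142887382-142889292, mean 28.4 CPM), IMMP2L (chr7:111201190-111202941, 36 CPM) and PTPRD (chr9:8856946-8858982, 32.4 CPM) it was called in none of the 22 knockouts. In the SMARCA4 knockout their log2 fold changes were -0.04, 0.19 and 0.34, with SE 0.15 to 0.16. In PARK2 the strongest member of all, chr6:163148545-163149232 at 45.1 CPM, rose from 42 and 32.3 CPM to 65.3 and 53.6 in clone 4 and 64.1 and 59.7 in clone 6 (0.80, SE 0.16, adjusted p 2.2e-05), although in the authors' normalized values it was 0.22 with an adjusted p of 0.13. In DLG2, chr11:85374753-85376475 rose from 31.7 and 31.3 CPM to 47 and 53.7 in clone 4 and 45.7 and 52.6 in clone 6 (0.77, SE 0.15, adjusted p 2.5e-05). In FHIT, chr3:59995314-59996998 was called higher in the ARID1A knockout (0.56, SE 0.18, adjusted p 0.022) and was at -0.15 (SE 0.18) in that of SMARCA4. CSMD1 differed, since its most accessible region, chr8:3101635-3103293, was called in 11 knockouts, 5 lower and 6 higher. MACROD2 differed too, since its most accessible region was lower in several knockouts, given below.

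CSMD1 was the locus that varied most between clones. Its total was called lower in 5 knockouts and higher in 10, and 0.205% of the 1461 windows were called higher in at least 10. Over the 26 clones its log2 fold change ran from -0.90 to 0.56 with an SD of 0.502, larger than that of 99.2% of windows, whose median SD was 0.089. The totals of LRP1B, FHIT, PARK2, IMMP2L, PTPRD and DLG2 had SDs of 0.15 to 0.176. The lowest totals stood at 114 and 107 CPM in SMARCA4 clone 4, 122 and 106 in the knockout of the core subunit SMARCD2, 127 and 106 in SMARCA4 clone 6 and 124 and 131 in BCL7B clone 8. Set 1 wild type lay at 209 and 213 CPM, well above these. The highest totals were 378 and 364 CPM in SMARCC2, 314 and 328 in BCL7B clone 10, 309 and 313 in ARID1B clone 7 and 282 and 324 in BCL11B knockout cells.

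In the SMARCD2 clone the CSMD1 total was lower by 0.89 on the log2 scale (SE 0.08, adjusted p 2.1e-10). It was lower by the 0.87 given above in the SMARCA4 knockout and by 0.46 in that of ARID1A (SE 0.07, adjusted p 1.4e-06). The total rose in BCL11B (0.50), SMARCC2 (0.50), SMARCD3 (0.46), PBRM1 (0.45) and SMARCC1 (0.44) knockouts, each with SE 0.08 and an adjusted p of at most 0.00026. Those 8 calls held under every alternative tried on totals, which did not include DESeq2 or the authors' normalized values. The wild type itself differed between sets, with 249 and 274 CPM in set 2 against 209 and 213 in set 1 (log2 difference -0.28, SE 0.08, adjusted p 0.0047), and against both wild types pooled the higher calls of BCL11A (0.41 to 0.26), BCL7A (0.29 to 0.15), DPF2 (0.27 to 0.13), DPF3 (0.33 to 0.19) and SMARCD1 (0.27 to 0.13) were lost. Each of these 5 was also lost without wild-type replicate 1, at 0.39, 0.27, 0.25, 0.32 and 0.26. BCL7A, DPF2, DPF3 and SMARCD1 were lost too without wild-type replicate 2 (0.31, 0.28, 0.35 and 0.30) or without their own replicate 1 (0.22, 0.25, 0.30 and 0.17), and DPF3 without its replicate 2 (0.36). The SMARCA2 call (-0.31) was lost without its replicate 2 (-0.22, adjusted p 0.5) and without wild-type replicate 1 (-0.32) or 2 (-0.28), and that of BCL7B (-0.22) without clone 8 replicate 1 (-0.20, adjusted p 0.06). The BCL7B value is a mean of clone 8 at -0.75 (SE 0.08) and clone 10 at 0.31 (SE 0.08), both called and in opposite directions. The ARID1B mean of -0.13 was not called, although clone 5 was at -0.81 (SE 0.08) and clone 7 at 0.56 (SE 0.08), both called.

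**Figure D3:**
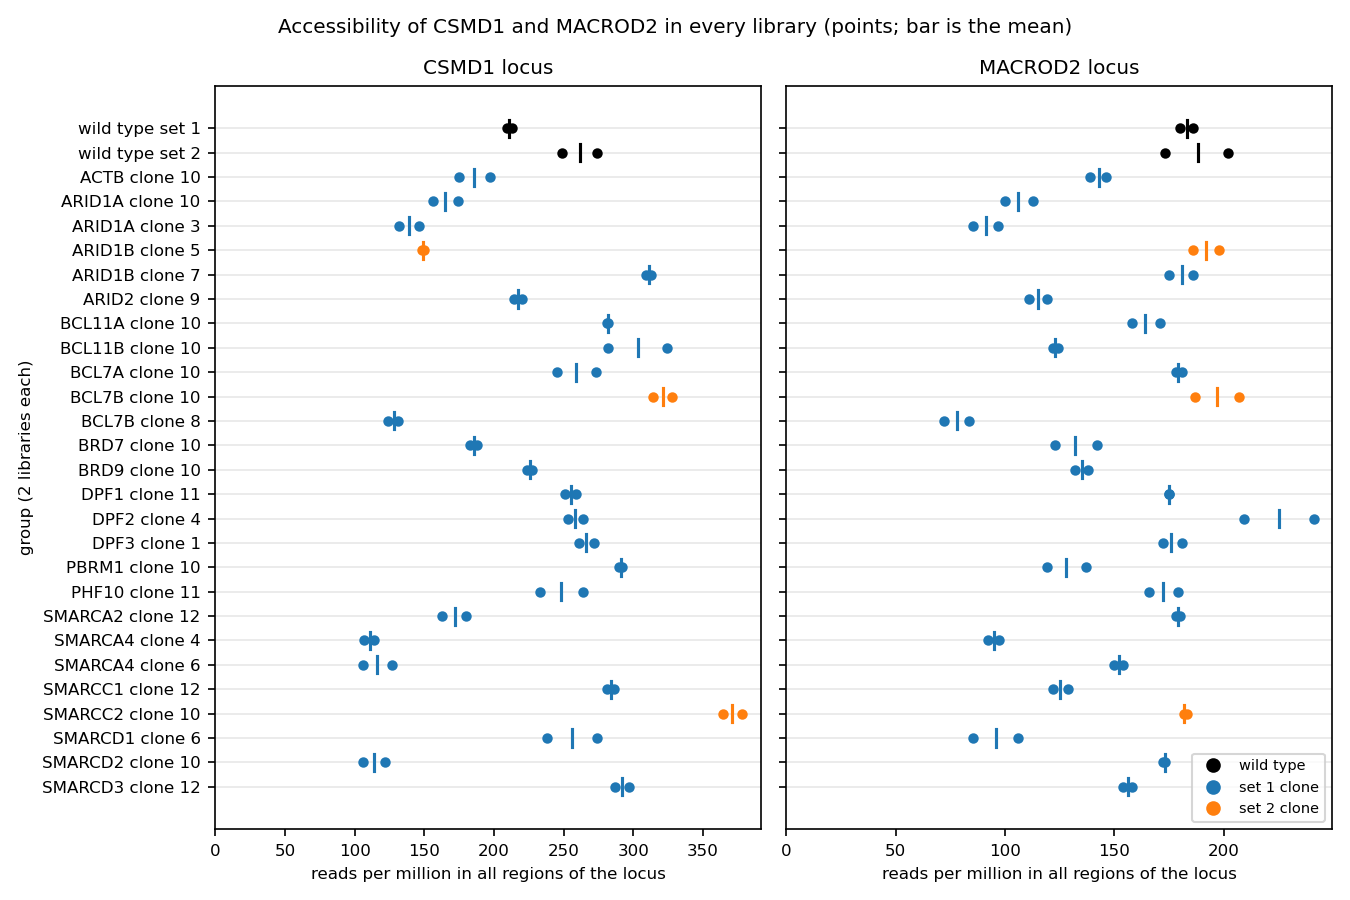
CPM summed over all regions of CSMD1 (left) and MACROD2 (right) in each library (points) with the group mean (bar), for wild type (black), set 1 clones (blue) and set 2 clones (orange). CSMD1 spans 106 to 378 CPM and MACROD2 72 to 241, with wild type between the extremes of CSMD1 and near the top of MACROD2.

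The variation of CSMD1 lay in one end of the window. The 47 regions from 2736466 to 3585172 on chromosome 8 and the 22 regions from 3640742 to 4890491 were summed apart. The boundary at 3.6 Mb was chosen after the values were seen, so these are a description. The lower stretch held 152 and 155 CPM in set 1 wild type, 66.4 and 59.7 in SMARCD2 and 255 and 262 in ARID1B clone 7. Its log2 ratio to wild type ran from -1.28 to 0.75, with 8 of 26 clones under -0.5 and 6 over 0.5. The upper stretch ran from -0.43 to 0.40, with 0 clones past either mark. Within the lower stretch, chr8:3016802-3017538 had 10.5 and 7.81 CPM in wild type, 1.21 and 0.719 in SMARCA4 clone 4 and 0.551 and 0.926 in clone 6 (-3.33, SE 0.29, adjusted p 4.4e-20). That region was also lower in ARID1A (-2.12) and SMARCD2 (-2.39) knockouts and higher in DPF2 (0.92), SMARCD1 (0.95) and SMARCD3 (1.09) knockouts. The BCL7B knockout was called lower there as well (-1.32), as a mean of clone 8, with 1.15 and 1.38 CPM beside that wild type, and clone 10, with 18.1 and 19.9 beside 13.5 and 17.9 in the set 2 wild type.

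A second region of that stretch showed how far the reference mattered. At chr8:3088238-3089390, called in 11 knockouts, set 1 wild type had 9.62 and 7.06 CPM and set 2 wild type 20.7 and 19.7. BCL11B knockout cells had 17.1 and 18.8 CPM there and were called higher (1.14, SE 0.24, adjusted p 0.0018) against set 1, yet they lay below the set 2 wild type. SMARCD2 cells, at 1.06 and 2.24 CPM, lay below all 4 wild-type libraries (-2.29, SE 0.32, adjusted p 1.5e-07).

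**Figure D4:**
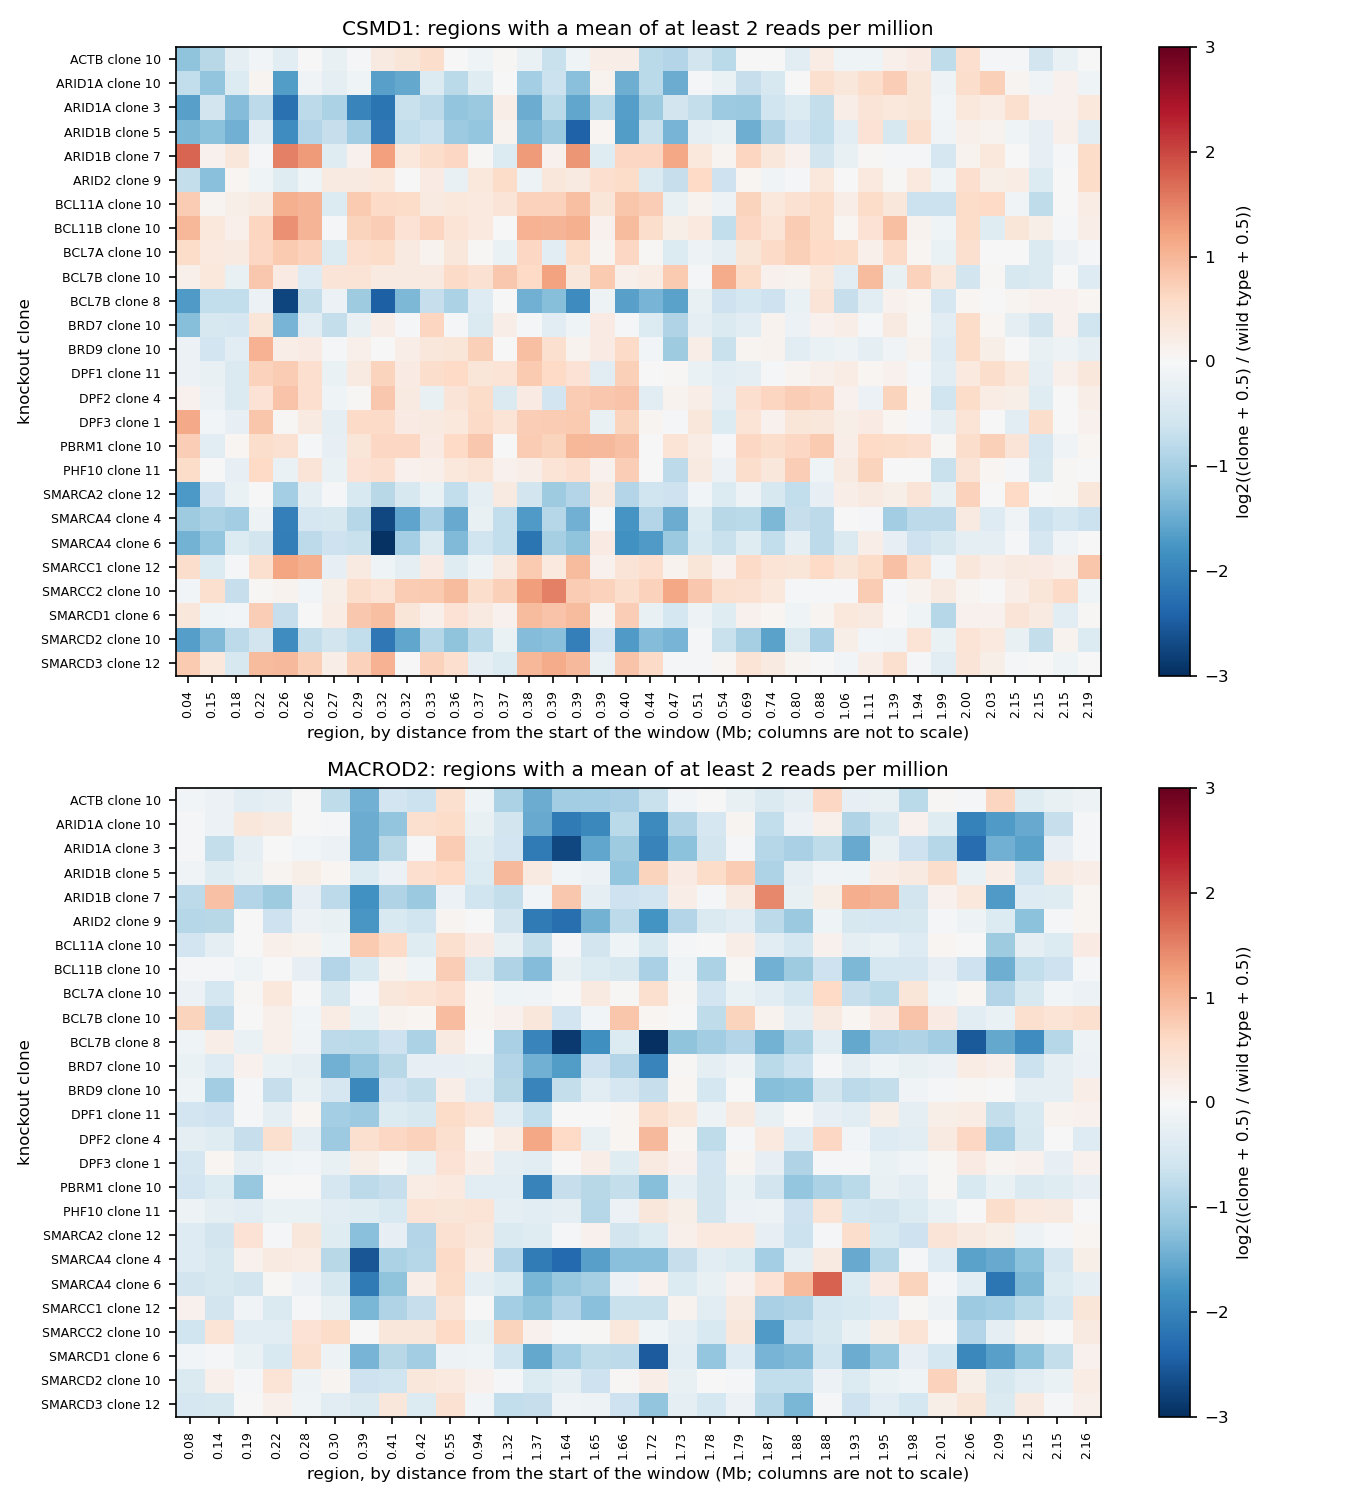
Log2 ratio of clone to wild type of its set, log2((CPM + 0.5)/(CPM + 0.5)), for regions of at least 2 CPM in CSMD1 (top) and MACROD2 (bottom), with the 26 clones as rows and the regions as columns in order of distance from the window's start in Mb. In CSMD1 the blue and red rows fade to white in the right part of the window, and in MACROD2 the blue is spread over single columns of many clones.

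MACROD2 was lower in 11 knockouts and higher in 0, and 0.274% of windows were lower in at least 11. Its log2 fold change over the 26 clones ran from -1.26 to 0.27 (SD 0.39, larger than that of 97.8% of windows). Set 1 wild type had 180 and 186 CPM. SMARCD1 cells had 106 and 85.5 (-0.94, SE 0.09, adjusted p 5.2e-10), ARID1A clone 10 had 113 and 100 and clone 3 had 96.7 and 85.4 (-0.87, SE 0.08, adjusted p 2.1e-11). ARID2 cells had 111 and 119 (-0.66, SE 0.09, adjusted p 1.9e-06), and BCL11B cells 122 and 124 (-0.59, SE 0.09, adjusted p 1.8e-05). None of these libraries reached the wild-type values. SMARCC1 was at -0.53 (SE 0.09), and PBRM1 (-0.53), BRD7 (-0.48), BRD9 (-0.44) and ACTB (-0.36) were called too. The latter 4 lost the call when 1 library was left out: PBRM1 replicate 2 (-0.44, adjusted p 0.088), BRD7 replicate 2 (-0.37, adjusted p 0.098), BRD9 replicate 1 (-0.39, adjusted p 0.056), and for ACTB its replicate 2 (-0.33, adjusted p 0.13) or wild-type replicate 2 (-0.34, adjusted p 0.078). Among the PBAF subunits ARID2, PBRM1 and BRD7 were thus called, and PHF10 was at -0.09 (SE 0.09, adjusted p 0.99).

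The 2 remaining calls of MACROD2 joined unlike clones. BCL7B, at -0.59 as a mean, consisted of clone 8 with 72 and 83.7 CPM (-1.26, SE 0.09) and clone 10, in set 2, with 207 and 187 (0.08, SE 0.09). SMARCA4, also at -0.59, consisted of clone 4 with 97.1 and 92.4 CPM (-0.92, SE 0.09) and clone 6 with 150 and 154 (-0.25, SE 0.09), and the call of clone 6 alone was lost when any of its 2 libraries (-0.23 and -0.27) or wild-type replicate 1 (-0.28) or 2 (-0.22) was left out. The clones of SMARCA4 differed by -0.67 (SE 0.09, adjusted p 1.7e-06).

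Single MACROD2 regions repeated across subunits. At chr20:15270828-15271467, called lower in 10 knockouts and higher in 1, set 1 wild type had 4.67 and 4.79 CPM and ARID2 cells 0.414 and 0.972 (-2.76, SE 0.50, adjusted p 6.1e-05). The 1 knockout above wild type was DPF2, a canonical BAF subunit, with 11.6 and 10.5 CPM (1.34, SE 0.36, adjusted p 0.024). At chr20:15542180-15543127, called lower in 8 knockouts and higher in 1, wild type had 15.3 and 14.5 CPM and ARID2 cells 2.59 and 2.81 (-2.46, SE 0.27, adjusted p 2.2e-12), and in the knockdown table the ARID2 knockout line had 4.82 and 6.16 CPM against 20.8 and 29.8 in wild type (-2.40, SE 0.38, adjusted p 0.00011). At chr20:14294130-14294816, lower in 8 knockouts, wild type had 4.28 and 6.93 CPM, SMARCA4 clone 4 had 0.85 and 0.205 and clone 6 had 0.882 and 0.926 (-2.90, SE 0.38, adjusted p 2e-10). Its values in the knockdown table were -1.85 with SMARCA4 knockdown, -2.16 in the ARID2 knockout line and -2.65 in the SMARCA4 knockout line, all called. Some of these counts hold a gene on 1 of its clones. At the first region BCL7B was called with clone 8 at 0.478 and 1.2 CPM and clone 10 at 8.14 and 7.28, beside 5.73 and 6.27 in the set 2 wild type, and at the third ARID1B was called with clone 7 at 0.782 and 1.69 and clone 5 at 7.38 and 6.64, beside 6.68 and 12.1. The most accessible MACROD2 region, chr20:15956775-15957531, was lower in ARID1A (-2.23), SMARCD1 (-2.0) and SMARCA4 (-0.92) among 6 knockouts, and without wild-type replicate 1 the SMARCA4 value was -0.59 (adjusted p 0.066).

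At chr20:15618473-15619397, lower in 7 knockouts, the DPF2 cells had 24.1 and 15.9 CPM against 10.1 and 9.83 (1.1, SE 0.26, adjusted p 0.0048). This call was lost without DPF2 replicate 1 (0.74, adjusted p 0.48), without wild-type replicate 1 (1.18, adjusted p 0.057) or 2 (1.06, adjusted p 0.14), and in the authors' values (0.89, adjusted p 0.13).

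Runs lacking reads were sought in every group as at least 3 neighbouring regions, each with at most 10% of the reads expected from the median CPM of the other groups. Only regions with at least 10 reads expected were counted, and any others between them were passed over. The genome held 38 such runs in 16 of the 28 groups of the knockout table, and 0 in wild type. Some recurred across clones. That from 89472170 to 89697913 on chromosome 10 was found in BCL11A, BCL11B, BCL7A, PHF10, SMARCC1, SMARCD1 and SMARCD3 clones. All of these but SMARCC1 and PHF10 shared another, from 98712525 to 98714700 on chromosome 13. All clones with the chromosome 10 run except PHF10 had the CSMD1 total called higher. Without that run DPF2, DPF3, PBRM1, SMARCC2, ARID1B clone 7 and BCL7B clone 10 were called higher as well. Whether such clones share a history was not tested. A single run lay in the 8 loci, inside the LRP1B window, in SMARCD3 clone 12. It covers 9 regions from 141870607 to 142217682 on chromosome 2, 347075 bp. The clone had 6 and 5 reads there in its 2 libraries, 11 against 730 expected (1.51%), which is 0.596 and 0.493 CPM beside 22.5 to 60.6 (median 36.5) in the other 54 libraries. The call rests on the reads expected at this depth, and covers counting error only.

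Both neighbours of the run had reads. The region before it, chr2:141867213-141867714, had 11 and 16 reads, and the region after it, chr2:142274669-142275170, had 16 and 10, within the range of the other libraries in each case. The most accessible region of the run, chr2:141870607-141872440, had 4 and 3 reads (0.397 and 0.296 CPM) against 2.68 to 26.9 CPM elsewhere, and 6 of the 9 regions had 0 reads in both libraries. All 9 were called lower, and they make up 9 of the 10 member regions called lower in SMARCD3, which leaves 1. The LRP1B total of SMARCD3 was not called either way, at 0.03 (SE 0.07, adjusted p 0.86) with all regions and 0.20 (SE 0.07, adjusted p 0.11) with the run's regions left out. Whether DNA was lost there was not tested, since the counts cover accessible regions only.

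**Figure D5:**
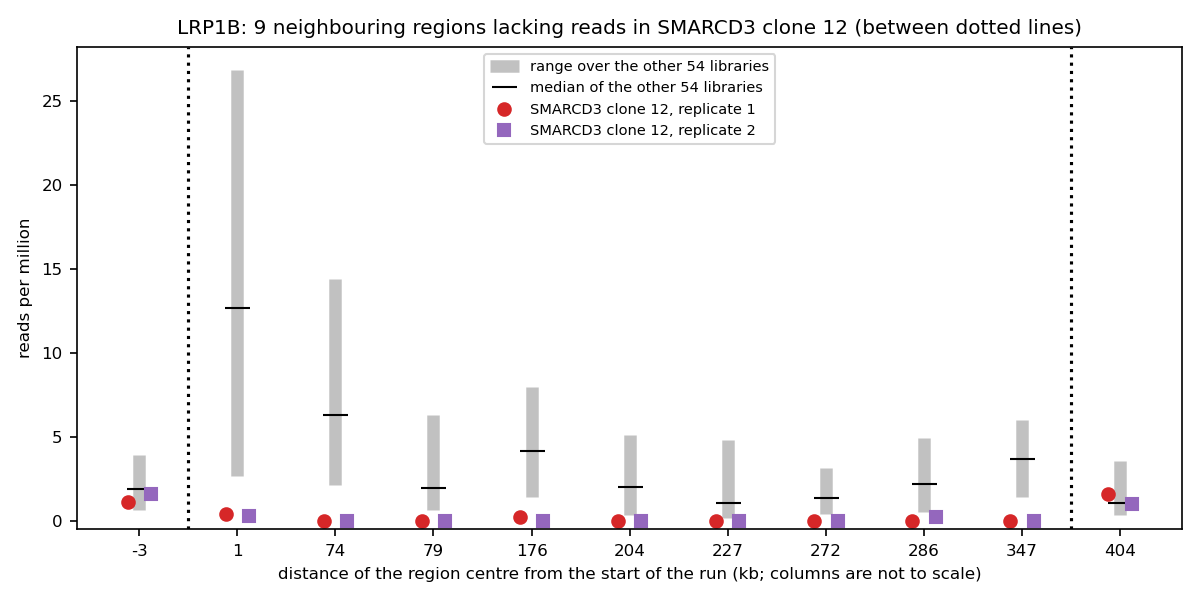
CPM in the 9 regions of the LRP1B run and its 2 neighbours (between and outside the dotted lines), by distance from the run's start in kb, for the 2 libraries of SMARCD3 clone 12 (red circles, purple squares) and the range (grey bar) and median (black line) of the other 54 libraries. The clone lies at or near 0 in all 9 regions and inside the grey bar in both neighbours.

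No member region lay in a run in any other clone, with 3 further CSMD1 regions of SMARCD2, from 3010612 to 3018079, joining only when the limit was raised to 20% of the expected reads (54 against 371). Outside the 8 loci, WWOX, another fragile-site gene, held 9 of the 38 runs, in 9 clones. That number varied with the search: it was 14 with runs of 2 regions allowed, 3 with at least 5 regions, 1 where 20 reads had to be expected, and 2 or 1 from the first or second library of each clone alone. In the knockdown table there were 2 runs, in the 2 SMARCA4 knockout groups, both in WWOX and 0 in the 8 loci.

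Knockdown of SMARCA4, alone or with ARID2, lowered member regions too. In wild-type cells with SMARCA4 knockdown 70 member regions were called lower (10.2%, against 4.96% of all regions) and 2 higher (0.291%, against 0.773%), with a median of -0.29 beside 0.06. Double knockdown of SMARCA4 and ARID2 gave 50 lower (7.27%, against 4%) and 3 higher (0.436%, against 0.618%). In the SMARCA4 knockout line with control knockdown 102 members were lower (against 8.26%) and 11 higher (against 1.49%). These counts shrink with fewer libraries: without any one of the 4 libraries they were 25 to 34, 12 to 26 and 57 to 80 lower. The ARID2 knockout line had 3 lower (against 0.374%) and 0 higher by both tools (against 0.0446%), with 15390 of all regions at an unadjusted p under 0.05. ARID2 knockdown alone gave 0 called members in wild-type cells and 0 in SMARCA4 knockout cells by edgeR and by DESeq2, where 0% of all regions were called and 6167 and 6524 had an unadjusted p under 0.05. SMARCA4 knockdown in ARID2 knockout cells also gave 0 by both tools, beside 13846 such regions, where 0.139% of all regions were called lower and 0.0556% higher. The difference between SMARCA4 knockdown in ARID2 knockout and in wild-type cells was called at 0 member regions by edgeR, with 7564 of all regions at an unadjusted p under 0.05.

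The knockout and knockdown tables share no library, so their calls can be set side by side. Of the 173 regions lower in SMARCA4 knockout clones, 48 were also lower after knockdown, 27.7% of the first list and 68.6% of the second, where all regions gave 25.4% and 71.2%. The 173 had a median log2 fold change of -0.80 after knockdown, and 157 were below 0. In the SMARCA4 knockout line with control knockdown 83 of the 173 were lower, 48% of the first list and 81.4% of the second, beside 44.4% and 74.6% over all regions. The labels do not say which clone that line is. It had the same WWOX run as SMARCA4 clone 6, from 78830044 to 79100975 on chromosome 16, with 0 reads in both. Clone 6 is part of the 173 calls, so this overlap may be of the same clone assayed again.

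At the PARK2 region chr6:162657734-162658878 the knockdown table gave 14.8 and 13.7 CPM with control, 2.52 and 4.58 with SMARCA4 knockdown, 2.65 and 2.51 with both and 2.87 and 3.69 in the SMARCA4 knockout line. The log2 fold changes were -2.11, -2.51 and -2.19, and the region was named as the lowest of the double knockdown too. In LRP1B, chr2:141513667-141515007 went from 15.2 and 14.6 CPM to 2.52 and 2.64 with SMARCA4 knockdown (-2.56, SE 0.40, adjusted p 9.3e-06) and was at -2.26 in the knockout line. In the knockout clones the same region changed by -1.01 (SE 0.30, adjusted p 0.0063) from a set 1 wild type of 4.96 and 5.29 CPM, while set 2 wild type had 17 and 13.1. At the IMMP2L region chr7:110717106-110718078 the control had 3.08 and 3.42 CPM, double knockdown 8.96 and 9.2 (1.42, SE 0.38, adjusted p 0.013) and the SMARCA4 knockout line 14.6 and 13.9 (2.07, SE 0.37, adjusted p 2.7e-05). The double knockdown call was lost without any one of its 4 libraries, at 1.41 without control replicate 1, 1.43 without control replicate 2, 1.33 without double knockdown replicate 1 and 1.5 without its replicate 2.

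Locus totals in the knockdowns were less certain. With SMARCA4 knockdown LRP1B fell by 0.61 (SE 0.12), PTPRD by 0.46 (SE 0.09), PARK2 by 0.34 (SE 0.11) and IMMP2L by 0.33 (SE 0.10) on the log2 scale, 4 of 8 loci where 15.4% of windows were lower and 11.1% higher. LRP1B totalled 441 and 469 CPM with control and 272 and 301 with SMARCA4 knockdown, and PTPRD 766 and 833 against 541 and 580. Each of these 4 calls was lost without control replicate 2 (-0.59, -0.42, -0.30 and -0.36) and without SMARCA4 knockdown replicate 1 (-0.54, -0.41, -0.28 and -0.33), PARK2 also without knockdown replicate 2 (-0.39), and IMMP2L without control replicate 1 (-0.32) or knockdown replicate 2 (-0.34) too. IMMP2L thus moved in opposite directions in the 2 tables: 359 and 358 CPM went to 271 and 275 with knockdown (adjusted p 0.027), whereas the knockout clones were higher. In the SMARCA4 knockout line of the knockdown table it was at 361 and 361 CPM, a log2 change of 0.04 (SE 0.10, adjusted p 0.79).

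In that line the totals of CSMD1 (-0.87, SE 0.22), LRP1B (-0.48, SE 0.12), PARK2 (-0.45, SE 0.11), FHIT (-0.35, SE 0.10) and PTPRD (-0.32, SE 0.09) were lower, 5 of 8 loci where 9.15% of windows were lower and 1.95% higher. CSMD1 had 130 and 165 CPM there against 245 and 304 in the control. All 5 were lost without SMARCA4 knockout line replicate 1 (-0.71, -0.45, -0.35, -0.31 and -0.33) or without control replicate 2 (-0.73, -0.46, -0.41, -0.42 and -0.28). CSMD1 (-1.04), LRP1B (-0.52), FHIT (-0.40) and PTPRD (-0.31) were also lost without replicate 2 of the line, and FHIT (-0.29) without control replicate 1. With SMARCA4 knockdown CSMD1 held 208 and 259 CPM, overlapping the control, a log2 change of -0.18 (SE 0.22, adjusted p 0.53). At chr8:3016802-3017538 the knockdown cells had 11 and 9.87 CPM beside 12.9 and 18.5 in the control, and the knockout line had 2.27 and 1.78 (-2.99, SE 0.43, adjusted p 2.4e-07). MACROD2 was at -0.36 (SE 0.20, adjusted p 0.16) with SMARCA4 knockdown and -0.40 (SE 0.20, adjusted p 0.65) in the ARID2 knockout line, neither called.

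The 2 wild types of the knockout table differed at 5 of the 8 loci, all lower in set 1 (27.6% of windows were lower and 23.1% higher): PTPRD by -0.37, CSMD1 by -0.28, LRP1B by -0.26, PARK2 by -0.15 and DLG2 by -0.12. At region level 51 members were lower (7.41%, against 4.29%) and 15 higher (2.18%, against 1.54%) in set 1. The sets are told apart by the form of the titles alone, and what else differed between them is not stated. Since ARID1B and BCL7B have 1 clone in each set, differences between their clones cannot be told apart from differences between the sets.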

How the data were processed

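ATAC-seq libraries of HAP1 cells were made with digitonin and TDE1 transposase, per the labels' protocols. The authors deposited read counts per region in a knockout table and a knockdown table, and log2 normalized accessibility of the same regions, also deposited by the authors. The submitters' processing notes name hg19, Bowtie2 2.2.4, Picard 1.118 and MACS2 2.1.1.20160309, without their roles. Of 74 listed samples, 72 have a column, and wild-type replicates 3 and 4 were not analysed here, nor were 2 columns the labels do not name.

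Counts were tested with edgeR 4.0.16 (quasi-likelihood, R 4.3.3) on 145532 knockout-table and 145617 knockdown-table regions, with 28 and 8 residual degrees of freedom, and p-values were adjusted by Benjamini-Hochberg over all of them. Totals were tested the same way over 1461 and 1487 windows of 2 Mb, each locus being 1 window. SE is the absolute log2 fold change over the square root of F. Alternatives were DESeq2 1.42.0, RLE scaling, no filter, pooled wild types, 1 Mb windows, the replicate block, left-out libraries, and limma 3.58.1 on the authors' log2 values. DESeq2, no filter and limma were applied to single regions only, not to totals. The edgeR fits of regions and of windows were tested on simulated data, and the search for runs was not.

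Replicate numbers were not taken as pairs, and the fit with them as a block was an alternative. Named regions are, per locus, the most accessible, that called in most knockouts, and those of lowest and highest fold change among called regions that were above the median accessibility, outside runs and without overlap between knockout and wild-type libraries. The lowest and highest called region of each knockdown comparison, every run and every called total are named too. The loci, regions and lists were chosen with earlier results of these data known. Coordinates are as the files give them, and exon or intron annotation in hg19 was not used here.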

Additional observations from a re-analysis of the deposited data

Results flagged for a closer look

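Pairs of clones of the same knocked-out gene differed in the total of a locus in 10 of 32 comparisons (edgeR, adjusted p under 0.05). For ARID1B, clone 5 minus clone 7 was -1.36 at CSMD1, -0.35 at LRP1B, -0.38 at PARK2 and -0.44 at PTPRD. For BCL7B, clone 10 minus clone 8 was 1.06 at CSMD1, -0.27 at LRP1B, 1.35 at MACROD2, -0.30 at PARK2 and -0.40 at PTPRD. For SMARCA4, clone 4 minus clone 6 was -0.67 at MACROD2. The clones of ARID1B and BCL7B lie in different sets, each against its own wild type. Against both wild types pooled, ARID1B was at -0.09 at LRP1B and -0.07 at PTPRD, and BCL7B at -0.01 at LRP1B, -0.04 at PTPRD and -0.15 at PARK2, none of them called. With libraries left out, ARID1B at LRP1B was lost without clone 5 replicate 1 (-0.24, adjusted p 0.094). BCL7B at LRP1B was lost without replicate 1 (-0.22) or 2 (-0.27) of clone 10, clone 8 replicate 1 (-0.21), or wild-type replicate 1 (-0.24), 2 (-0.27) or 6 (-0.23), with adjusted p from 0.052 to 0.15, and with the regions of runs lacking reads left out (-0.23, adjusted p 0.057). BCL7B at PARK2 was lost without clone 8 replicate 1 (-0.21, adjusted p 0.065). Of all windows, 20% were lower and 14.6% higher in the ARID1B difference, 25.3% and 23% in that of BCL7B and 4.04% and 0.411% in that of SMARCA4. Clone and set cannot be told apart in the ARID1B and BCL7B pairs.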

How the results depend on the processing

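Locus totals kept their call in 99 of 101 cases with 1 Mb windows, 101 of 101 with RLE scaling, 74 of 92 with pooled wild types and 386 of 494 with a library left out, and no direction reversed. Totals were not tried with DESeq2 or with the authors' normalized values, the scaling under which the split of regions turned. With pooled wild types, member regions called lower over the knockouts went from 421 to 943 and higher from 163 to 246, ARID1A from 103 to 195 lower and 13 to 33 higher, and totals called lower from 26 to 41. With limma on the authors' log2 values, over the 19 knockouts wholly in set 1, lower regions went from 398 to 200 and higher from 129 to 330, SMARCA4 from 173 to 56 lower and 35 to 109 higher, and ARID1A from 103 to 39 lower and 13 to 78 higher. With either alternative the calls over all regions moved as well in SMARCA4 and ARID1A, as given with the knockouts above. The cause was not tested. Same-numbered libraries deviated together at correlations of -0.0681 to 0.0872 in the knockout table, with 0 of 23 over 0.1, and of 0.0652 to 0.201 in the knockdown table, with 5 of 7 over 0.1. In the knockdown table all 7 were thus above 0, a hint from the data that the numbers may mark something shared there, which the labels do not state. With the replicate block, lower regions in the double knockdown went from 50 to 77, and of the counts in this paragraph the block changed no other by over 1.5 times. The median in place of the mean CPM per region was 2.83 in the loci and 3.41 over all regions. Runs numbered 71 with a limit of 20% and 20 with at least 5 regions, and runs in the loci 2 at 20%. With 1 library left out, lower regions ranged from 239 to 422 and higher from 67 to 167 over the knockouts, SMARCA4 from 113 to 168 lower and 24 to 33 higher, and ARID1A from 54 to 97 lower and 7 to 17 higher. Totals ranged from 22 to 27 lower and 9 to 19 higher. In the knockdowns lower regions ranged from 25 to 34 (SMARCA4), 12 to 26 (double) and 57 to 80 (SMARCA4 knockout line), and lower totals from 0 to 3 and 0 to 4.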
